A study of Mus musculus with 12 samples.

Results

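The genes described here encode subunits of Polycomb repressive complex 1 (PRC1): Ring1, Rnf2, Bmi1, Pcgf2, Cbx2, Cbx6, Cbx7, Cbx8 and Phc1. They were taken by symbol from the deposited table of reads per gene, which gave 9 of its 48795 genes, and all 9 were among the 17725 genes with enough reads to test. RNA was sequenced from the piriform cortex, the olfactory area of the cerebral cortex, of 12 mice. Per the labels, 6 mice were heterozygous for Q140, a knock-in allele of the Huntington's disease gene Htt with an expanded CAG repeat, and therefore kept a normal copy of Htt. The other 6 were wild type. Each genotype had 3 males and 3 females, and all 12 animals were C57BL/6, 12 months old and processed on plate 1. Every library carries the name of a different animal, and p-values here reflect how far animals differ. The animals are numbered within a genotype here, and the numbers only name them.

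PRC1 is a chromatin complex that keeps developmental genes silent in cells that do not use them. Its core is an E3 ubiquitin ligase, formed by a RING protein (Ring1 or Rnf2) with a Pcgf partner, that attaches ubiquitin to histone H2A. In canonical forms of the complex a chromobox (Cbx) protein reads the methyl mark that Polycomb repressive complex 2 (PRC2) leaves on histone H3, and a polyhomeotic (Phc) protein links complexes to each other and compacts chromatin. The Cbx and Pcgf proteins are alternatives within a complex, so the makeup of PRC1 differs between cell types.

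Of the 9 genes, only Cbx8 passed the test between the genotypes, and it was higher in Q140. The test was edgeR's quasi-likelihood test with sex as a covariate, with Benjamini-Hochberg adjustment over all 17725 genes and a threshold of 0.05. By this rule 1 of 9 genes was called higher and 0 lower, beside 4.5% of all genes tested called higher, 6.69% called lower and 11.2% called in either direction. Over all genes these were 797 higher and 1185 lower, and a limma fit on log2(FPKM + 0.1), with no composition correction, called 1570 higher and 751 lower. At an unadjusted p under 0.05 there were 4 of 9 genes, beside 26.7% of all genes tested. The median log2 fold change of the 9 was 0.03, with 5 positive and 4 negative, and the median absolute change was 0.10, beside 0.11 over all genes. Their share called is near that of all genes.

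The promoters of Cbx8, Cbx6 and Cbx7 are shown because Cbx8 was called, while Cbx6 and Cbx7, the chromobox members with the highest levels, were not. Each sequence is from RefSeq on GRCm38.p6 and runs from 250 bases before to 50 bases after the annotated start, on the strand of the gene, 5′ to 3′. Capitals mark the GC box letters GGGCGG or their reverse complement CCGCCC. The windows are chr11:119040864-119041163 for Cbx8, chr15:79834284-79834583 for Cbx6 and chr15:79932597-79932896 for Cbx7, all on the minus strand. RefSeq starts differ from the ends of the gene spans given below, which are from GENCODE M21. The Cbx7 window lies inside its span (79915807 to 79971119) and not at the 5′ end of it, and the Cbx6 window also lies inside its span (79823896 to 79834688).

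Cbx8: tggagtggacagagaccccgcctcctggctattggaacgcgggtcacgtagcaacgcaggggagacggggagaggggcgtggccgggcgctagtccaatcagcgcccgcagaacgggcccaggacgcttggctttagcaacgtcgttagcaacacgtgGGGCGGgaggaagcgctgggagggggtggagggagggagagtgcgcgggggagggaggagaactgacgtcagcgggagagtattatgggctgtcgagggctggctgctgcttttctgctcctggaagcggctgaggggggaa
Cbx6: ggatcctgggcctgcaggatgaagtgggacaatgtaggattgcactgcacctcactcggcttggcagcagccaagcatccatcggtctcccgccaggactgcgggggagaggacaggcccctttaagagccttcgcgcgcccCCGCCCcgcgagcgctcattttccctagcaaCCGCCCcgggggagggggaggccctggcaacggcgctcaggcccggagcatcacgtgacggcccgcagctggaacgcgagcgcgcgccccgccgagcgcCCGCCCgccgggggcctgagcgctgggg
Cbx7: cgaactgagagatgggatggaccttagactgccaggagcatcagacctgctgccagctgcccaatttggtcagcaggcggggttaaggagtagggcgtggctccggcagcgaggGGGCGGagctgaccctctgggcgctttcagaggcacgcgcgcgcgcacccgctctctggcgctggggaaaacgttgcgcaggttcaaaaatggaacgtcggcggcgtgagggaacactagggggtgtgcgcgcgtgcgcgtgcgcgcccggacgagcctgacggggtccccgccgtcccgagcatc

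The Cbx8 window held 24 CG dinucleotides and 1 GC box, that of Cbx6 31 and 3, and that of Cbx7 33 and 1. Promoter sequences were matched for 8 of the 9 genes. Their windows held 9 to 37 CG dinucleotides, beside a median of 7 over 32817 promoters of the same length. A GC box stood in 7 of the 8, on either strand, and in 35.6% of all promoters. The letters CCAAT, searched on both strands, stood in 2 of the 8, with 2 copies in Cbx8 and 1 in Cbx7, and in 37.4% of all promoters. No copy of CCAAT in Cbx8 or Cbx7 overlapped the GC box there. These matches describe letters in the windows only.

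Levels between genes were compared as FPKM, the authors' value per gene length and library size. In the wild types Cbx6 had the highest level, 66.8 ± 4.18 FPKM (SD, n = 6), at the 96.5th percentile of the genes tested. Bmi1 (11.9), Cbx7 (10.7), Phc1 (10.3), Pcgf2 (10 FPKM) and Ring1 (9.75) followed. From Bmi1 down to Ring1, neighbours in this order overlapped in their ranges over the animals. Rnf2 (7.16), Cbx8 (2.68) and Cbx2 (0.848 FPKM) came last, with no overlap between Ring1, Rnf2, Cbx8 and Cbx2. The mean level of Cbx6 was 78.8 times that of Cbx2. The length behind the deposited FPKM of Cbx6 was 6290 bases, against 10609 bases of exon in GENCODE M21, and on the longer length its wild type level would be 39.6 FPKM and still the highest of the 9.

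**Figure D1:**
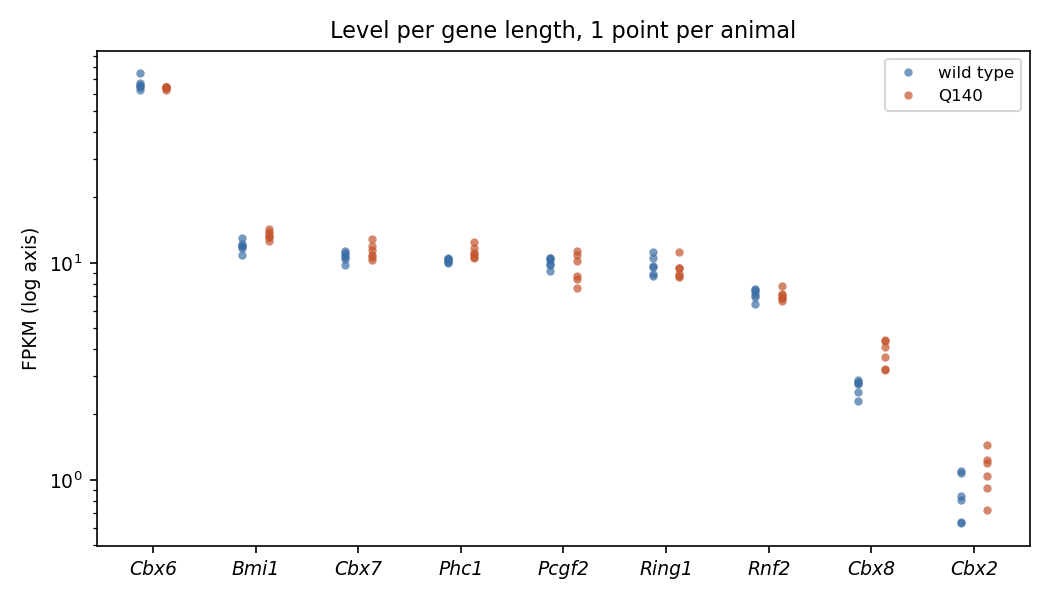
Level of the 9 PRC1 genes as FPKM on a log axis, 1 point per animal, wild type in blue and Q140 in orange, in the order of the wild type means. Cbx6 lies above all other genes, 5 genes near 10 FPKM overlap in a row, and Cbx8 and Cbx2 lie lowest.

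The 2 ligase genes showed no called difference. Ring1 (ENSMUSG00000024325, GRCm38 chromosome 17, 34020792 to 34024680, minus strand) had values from 28.3 through a median of 31.4 to 37.4 CPM (the count relative to the TMM-scaled library size) in the wild types and from 27 through 29.3 to 35.2 CPM in Q140. The groups overlapped over most of their range, and the log2 fold change was -0.10 (SE 0.0757, edgeR adjusted p = 0.416). It ran from -0.06 without wild type animal 3 to -0.16 without Q140 animal 3, and was -0.21 with the mean of the oligodendrocyte markers as a covariate, and it did not pass in any of these. Rnf2 (ENSMUSG00000026484, chromosome 1, 151458004 to 151500955, minus strand), the other RING protein, ran from 27.5 through 30.4 to 31.6 CPM in the wild types and from 26.7 through 28.7 to 31.2 CPM in Q140. These ranges overlapped too, and the log2 fold change was -0.05 (SE 0.0463; edgeR, adjusted p = 0.488). The FPKM ratio of Ring1 to Rnf2 was 1.37 ± 0.156 in the wild types and 1.33 ± 0.19 in Q140 (SD, n = 6 each), a log2 difference of -0.04 (exact permutation test over animals, two-sided, p = 0.686, adjusted over 3 ratios 0.686). The smallest p that 6 animals against 6 allow is 0.00216.

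Bmi1 and Pcgf2 encode alternative Pcgf partners that stimulate the ligase. Bmi1 (ENSMUSG00000026739, chromosome 2, 18677018 to 18686629, plus strand), first known as an oncogene that represses the Cdkn2a locus, ran from 44.4 through 48.3 to 51.7 CPM in the wild types and from 48.5 through 52.7 to 55.4 CPM in Q140. All 6 Q140 animals lay above the wild type mean of 48.2 and 4 lay above every wild type, but the log2 fold change of 0.12 (SE 0.0462) did not pass (edgeR adjusted p = 0.104). It passed in a limma fit on log2(FPKM + 0.1) (0.17, adjusted p = 0.028), and in edgeR without Q140 animal 5, the lowest Q140 animal (0.15, adjusted p = 0.0424).

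Pcgf2 (ENSMUSG00000018537, chromosome 11, 97688823 to 97700497, minus strand), also called Mel18, ran from 32.6 through 36.1 to 37.5 CPM in the wild types and from 27.1 through 32.7 to 38.8 CPM in Q140. Across all animals its log2 fold change was -0.14 (SE 0.0685, edgeR adjusted p = 0.22). This was -0.09 without Q140 animal 2 and -0.06 with the leading letters of the animal name as a covariate, and neither passed. Among Q140 animals the females lay below the males. The names of all Q140 males and of no Q140 female begin with RFQ, so sex and these letters cannot be told apart there. The 3 Q140 females had 27.1, 29.5 and 30.7 CPM, all below the 3 wild type females at 35.6, 35.7 and 37.5 CPM. The shares of all genes tested that separate in this way among females, or by sex among Q140 animals, were not counted. The 3 Q140 males had 34.7, 37 and 38.8 CPM, within and above the wild type males at 32.6, 36.6 and 37.5 CPM. In females Pcgf2 fell by 0.32 on the log2 scale (SE 0.0692, edgeR adjusted p = 0.0173), the only member called among females, where 4.21% of all genes tested were called lower. This call was lost without wild type animal 3 (-0.33, adjusted p = 0.0529) or Q140 animal 2 (-0.27, adjusted p = 0.097). In males the log2 fold change was 0.05 (edgeR adjusted p = 0.799).

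Whether the Q140 effect on Pcgf2 differed between the sexes was tested directly. The difference was 0.37 on the log2 scale (SE 0.0982), with an unadjusted edgeR p of 0.0025 and an adjusted p of 0.471, so the sexes were not shown to differ. By this test 0 of the 9 members and 0% of all genes tested were called. At an unadjusted p under 0.05 there were 2 of 9 members and 1633 genes, 9.21% of all tested. The FPKM ratio of Pcgf2 to Bmi1 ran from 0.753 to 0.907 in the wild types (0.842 ± 0.0632) and from 0.585 to 0.827 in Q140 (0.71 ± 0.109, SD, n = 6 each), a log2 difference of -0.26 (exact permutation test, two-sided, p = 0.0346, adjusted over the 3 ratios 0.104). The ratio ranges overlapped and the difference did not pass the threshold once adjusted.

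The chromobox genes encode the subunits that bind the methyl mark. Cbx8 (ENSMUSG00000025578, chromosome 11, 119036305 to 119040969, minus strand) had 8.53, 9.63, 10.2, 10.5, 10.5 and 10.7 CPM in the 6 wild types and 11.8, 11.9, 13.4, 14.6, 15.5 and 15.6 CPM in the 6 Q140 animals. The lowest Q140 animal lay above the highest wild type. The mean rose from 10 ± 0.823 to 13.8 ± 1.72 CPM (SD, n = 6 each), by 36.9% or 0.45 on the log2 scale (SE 0.083, edgeR adjusted p = 0.00387). On the CPM scale it was the only member whose ranges did not overlap, and 4.59% of all genes tested had ranges that did not. In 24 of 27 alternative analyses the call held, with log2 fold changes of 0.39 to 0.54 over all 27.

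Since the Cbx8 ranges of the genotypes did not overlap over all animals, they could not overlap within a sex, and this adds no further result. How many of the genes tested separate within a sex was not counted. The difference was called in males only. The 3 Q140 males had 14.6, 15.5 and 15.6 CPM against 8.53, 10.2 and 10.5 CPM in the wild type males, which is 0.64 higher on the log2 scale (SE 0.0964, edgeR adjusted p = 0.00799), where 0.44% of all genes tested were called higher. Cbx8 was 1 of 9 members called in males. The 3 Q140 females had 11.8, 11.9 and 13.4 CPM against 9.63, 10.5 and 10.7 CPM, 0.27 on the log2 scale (SE 0.095, edgeR adjusted p = 0.108). The difference between the sexes was 0.38 (unadjusted p = 0.0154, edgeR adjusted p = 0.471) and did not pass.

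The animal names in the labels begin with RFckQ, RFQ or FMQ, or have no letters, and the labels do not say what this means. These name classes are unequally spread: RFckQ holds 4 wild types and 1 Q140 animal, and RFQ holds 1 wild type and 3 Q140 animals. FMQ holds only 1 wild type, a female, and the names with no letters belong only to 2 Q140 females. In these last classes genotype and name class cannot be told apart. Within RFckQ, Cbx8 was at 10.2 to 10.7 CPM in the wild types and 11.8 CPM in Q140. Within RFQ it was at 8.53 CPM in the wild type and 14.6 to 15.6 CPM in Q140. All 3 Q140 males and no Q140 female are RFQ, so among Q140 animals sex and name class cannot be told apart. With the name class as a covariate over the 9 animals of RFckQ and RFQ the log2 fold change was 0.50 and did not pass (edgeR adjusted p = 0.173). That fit kept only 1 Q140 female. The names also carry a number before a hyphen whose meaning is not stated, and 5 animals have a number that both genotypes share. Under number 150 (females) Cbx8 was at 10.5 CPM in the wild type and 11.8 CPM in Q140, and under number 161 (males) at 8.53 CPM in the wild type and 14.6 and 15.6 CPM in Q140. With this number as a block over those 5 animals, chosen after seeing the data, the log2 fold change was 0.54 and did not pass the edgeR threshold, and 1 gene of all those tested was called. For Pcgf2, the RFckQ Q140 animal, a female, had 29.5 CPM against 35.7 to 37.5 CPM in the RFckQ wild types. Within RFQ, all males, the direction was opposite, with 32.6 CPM in the wild type and 34.7 to 38.8 CPM in Q140.

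Cbx2 (ENSMUSG00000025577, chromosome 11, 119022962 to 119031270, plus strand), best known for its part in gonad development, was the member with the lowest level. It ran from 2.77 through 3.54 to 4.72 CPM in the wild types and from 3.08 through 4.69 to 5.96 CPM in Q140. The groups overlapped, and the log2 fold change of 0.31 (SE 0.115) did not pass (edgeR adjusted p = 0.0969). Males had higher Cbx2 values than females within each genotype. The values were 3.6 to 4.72 against 2.77 to 3.49 CPM in the wild types and 4.94 to 5.96 against 3.08 to 4.44 CPM in Q140. How many of the genes tested separate by sex in this way was not counted, and among Q140 animals sex and name class cannot be told apart. With genotype as a covariate the male minus female log2 difference was 0.50 (SE 0.115, edgeR adjusted p = 0.0744). By this comparison 0 of 9 members and 0.654% of all genes were called, and 3 members and 13.5% of all genes tested had an unadjusted p under 0.05.

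Cbx6 (ENSMUSG00000089715, chromosome 15, 79823896 to 79834688, minus strand) ran from 396 through 416 to 485 CPM in the wild types and from 389 through 394 to 409 CPM in Q140. Of the 6 Q140 animals 4 lay below every wild type and 0 above the wild type mean, and the log2 fold change was -0.10 (SE 0.041, edgeR adjusted p = 0.127). Cbx7 (ENSMUSG00000053411, chromosome 15, 79915807 to 79971119, minus strand), which starts further along the same chromosome, ran from 65.6 through 70.6 to 73.6 CPM in the wild types and from 66.3 through 71 to 80 CPM in Q140. Its groups overlapped, with 2 of 6 Q140 animals above every wild type (log2 fold change 0.03, SE 0.0371, edgeR adjusted p = 0.607). The FPKM ratio of Cbx7 to Cbx6 was 0.161 ± 0.017 in the wild types and 0.176 ± 0.0138 in Q140 (SD, n = 6 each), a log2 difference of 0.13 (exact permutation test, two-sided, p = 0.123, adjusted over the 3 ratios 0.185). When animals were permuted within sex only, it passed (exact permutation, adjusted p = 0.03).

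Phc1 (ENSMUSG00000040669, chromosome 6, 122317731 to 122340561, minus strand) is the polyhomeotic subunit of the list. It ran from 53.5 through 55.6 to 56.7 CPM in the wild types and from 53.9 through 58.5 to 63.9 CPM in Q140. The wild types lay close together and the Q140 animals spread around and above them, and the log2 fold change was 0.08 (SE 0.0419, edgeR adjusted p = 0.234). As FPKM, which is not corrected for library composition, its wild types ran from 10 to 10.5 and its Q140 animals from 10.5 to 12.5. In that unit all 6 Q140 animals lay above all 6 wild types, while in CPM the ranges overlapped. The share of all genes tested that separate in FPKM was not counted.

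**Figure D2:**
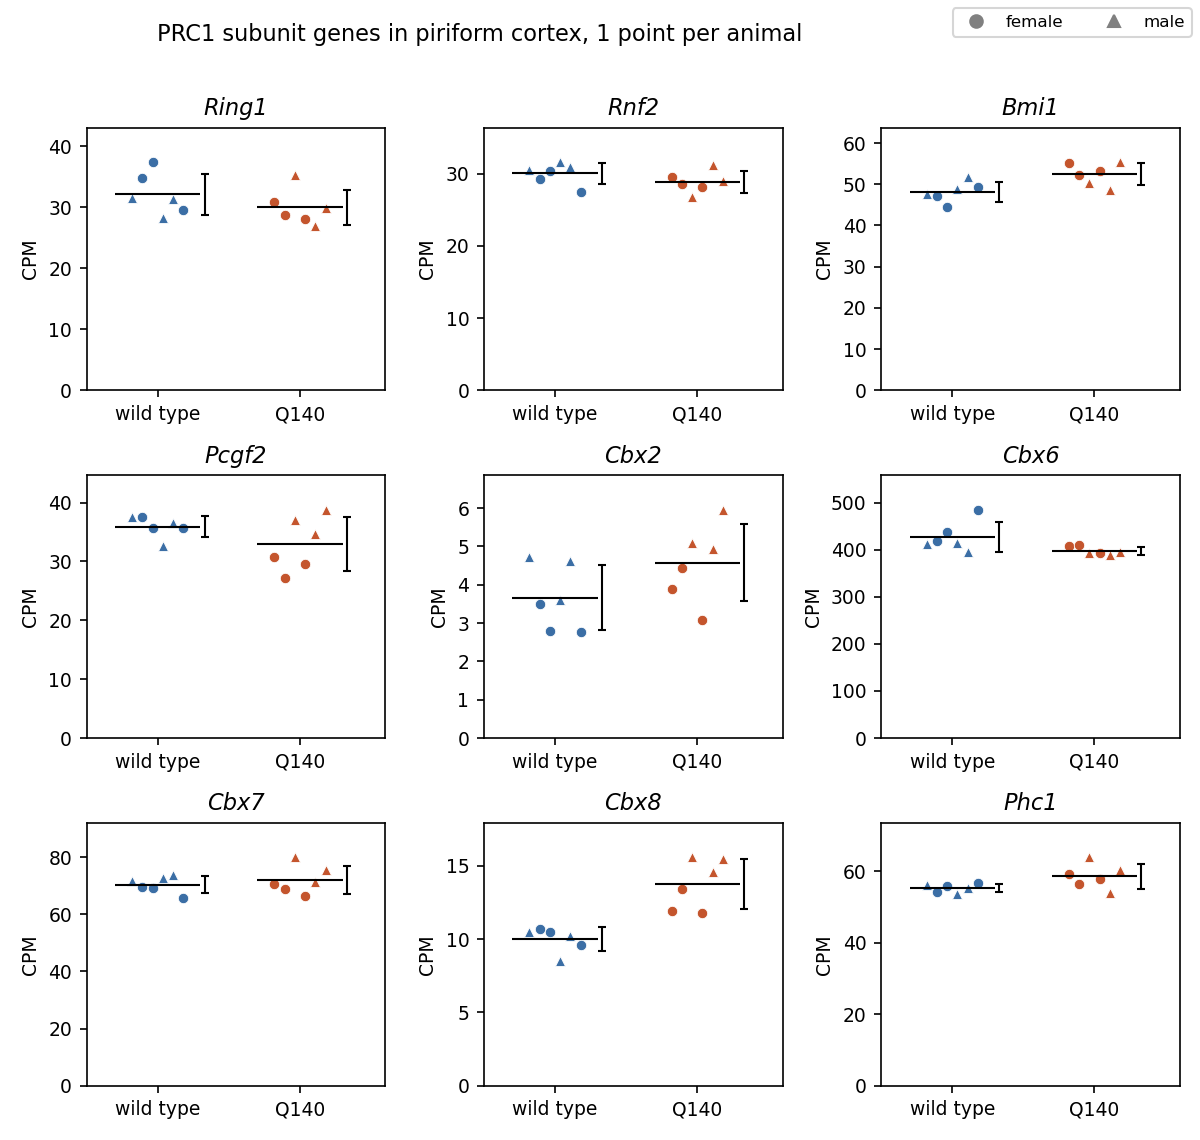
CPM of each of the 9 PRC1 genes, 1 point per animal (circles female, triangles male; axes start at 0), with the group mean as a line and the SD as a bar beside it. Only for Cbx8 do all Q140 animals (11.8 to 15.6 CPM) lie above all wild types (8.53 to 10.7 CPM), and Pcgf2 is low in the 3 Q140 females.

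**Figure D3:**
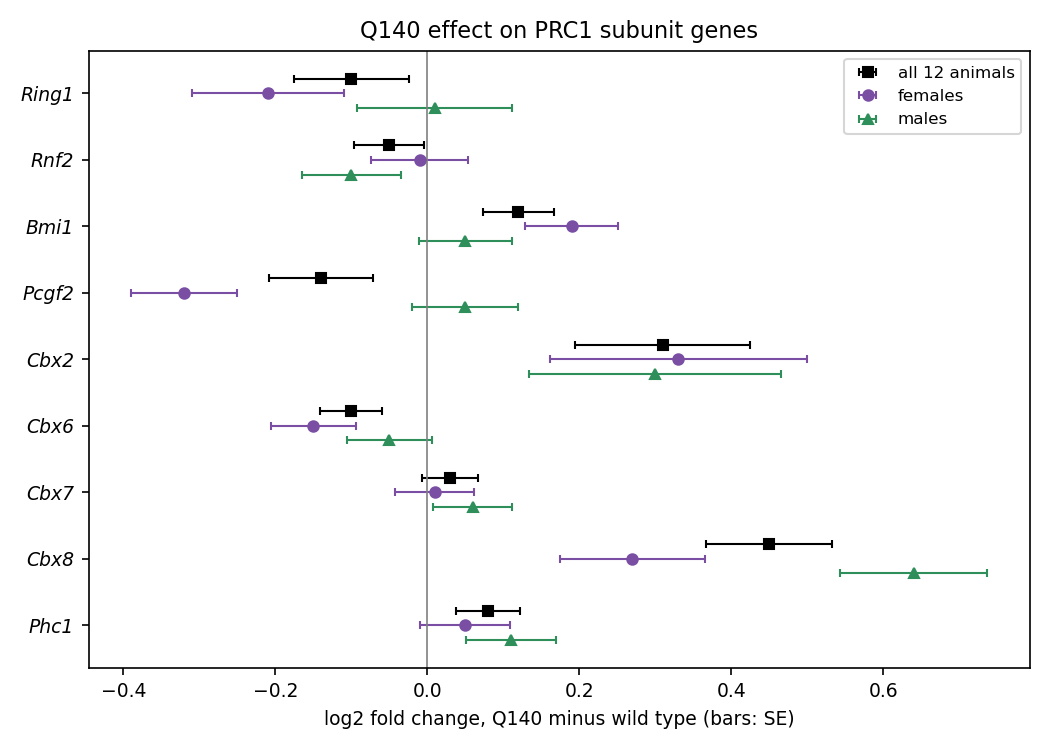
Log2 fold change of Q140 minus wild type for the 9 PRC1 genes, with the SE as bars, over all 12 animals (squares), in females (circles) and in males (triangles). Cbx8 (0.45) lies furthest right over all animals, and Pcgf2 lies at -0.32 in females and 0.05 in males.

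Cbx8 and Cbx2 are neighbours on chromosome 11, with a gap of 5.04 kb between them, and Cbx6 and Cbx7 are 81.1 kb apart on chromosome 15. In the first pair Cbx8 was called higher and Cbx2 was not called, and in the second neither gene was called. The Q140 log2 fold changes were 0.45 and 0.31 for Cbx8 and Cbx2, and -0.10 and 0.03 for Cbx6 and Cbx7.

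The share of each gene in the summed FPKM of the 4 chromobox members describes how their mix differed, with no test. Cbx6 made up 80.6 to 85.2% in the wild types and 77.8 to 81.5% in Q140, and these ranges overlapped. Cbx8 made up 2.9 to 3.61% in the wild types and 4.06 to 5.31% in Q140, with no overlap. The FPKM of Cbx8 behind this share already did not overlap (2.31 to 2.88 in the wild types and 3.22 to 4.4 in Q140). Its share, on either length of Cbx6, therefore adds no further result. Cbx7 had shares of 13.2 ± 1.17% and 14 ± 0.827%, and Cbx2 of 1.05 ± 0.282% and 1.35 ± 0.284% (wild type and Q140, SD, n = 6 each). These shares rest on the deposited length of Cbx6. On the GENCODE M21 length the wild type and Q140 means would be 73.5% and 70.2% for Cbx6 and 4.99% and 7.03% for Cbx8, whose ranges still would not overlap (4.35 to 5.42% and 6.07 to 7.78%). The shares add up to the whole, so a higher share of Cbx8 lowers the others.

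**Figure D4:**
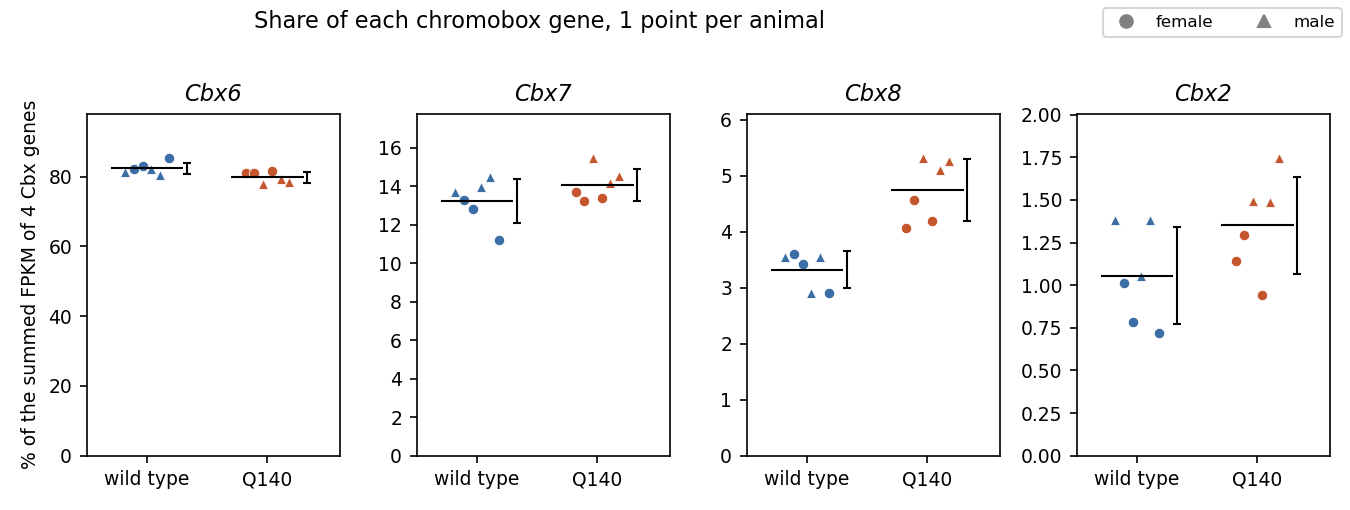
Share of Cbx6, Cbx7, Cbx8 and Cbx2 in the summed FPKM of these 4 chromobox genes, in percent, 1 point per animal (circles female, triangles male; axes start at 0), with the group mean as a line and the SD as a bar beside it. All Q140 animals lie above all wild types for Cbx8, and the groups overlap for the other genes. Cbx6 is on its deposited length.

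The members were also compared with each other over the 12 animals, on log2 CPM with the means of genotype and sex removed, over 36 pairs with permutation p-values adjusted over the pairs. Of these, 21 were positive, with a median r of 0.16. By Pearson's r 2 pairs passed: Ring1 with Cbx7 (r = 0.87, adjusted p = 0.0104; rho = 0.86, adjusted p = 0.0266) and Rnf2 with Phc1 (r = -0.79, adjusted p = 0.0439; rho = -0.61, adjusted p = 0.238). Leaving out the 2 animals farthest from the median of the first gene gave r = 0.77 and r = -0.60. Pcgf2 with Cbx8 passed by rho (0.82, adjusted p = 0.0412) and not by r (0.75, adjusted p = 0.062). With only genotype removed, 0 pairs passed by r, and with offsets for gene length and GC content, chosen after seeing the data, 0 passed by r, while Ring1 with Cbx7 still passed by rho (adjusted p = 0.0162). Rnf2 and Bmi1 differ from the other members in GC content, 39.5% and 40.2% of the longest transcript against 53.1% to 57.6%. The genes with the highest r to Cbx8 over the animals, of 15484 searched, were Ddx28 (r = 0.95), Zfp319 (r = 0.93) and Ano8 (r = 0.92). As the largest of so many values over 12 animals these are high by selection, and they were not tested. The neighbour Cbx2, which was not chosen by its r, had an r of 0.54.

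Among the 24 other PRC1 genes reported here, all tested, 0 were called higher and 2 lower by edgeR, with a median log2 fold change of -0.01. DESeq2 called 3 in either direction, and 4 had an unadjusted edgeR p under 0.05. The 2 lower genes are 8.33% of the list, beside 6.69% of all genes, and 26.7% of all genes had an unadjusted p under 0.05. The lists that follow are to be read against the same shares. Auts2, a subunit of variant PRC1 with a role in neurons, fell from 97.2 ± 5.9 to 82.1 ± 9.37 CPM (± SD of 6 animals), a log2 fold change of -0.24 with edgeR (adjusted p = 0.00989), and Bcorl1, a corepressor of variant PRC1, fell from 31.5 ± 2.28 to 27.6 ± 1.52 CPM (-0.19, adjusted p = 0.0432). Dcaf7, an Auts2-complex partner, was at -0.18 (adjusted p = 0.0527) and Pcgf6 at 0.18 (adjusted p = 0.123).

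Of 11 PRC2 genes tested, which write the mark that the Cbx proteins bind, 0 were called by edgeR and 0 by DESeq2, with 2 at an unadjusted p under 0.05. Of the 8 genes of H2A deubiquitination, which removes the ubiquitin that PRC1 adds, Bap1 was lower (log2 fold change -0.13, adjusted p = 0.0244) and Asxl3, from the Asxl family of Bap1 partners, was higher (0.18, adjusted p = 0.0478). The 3 HP1 chromobox genes, which bind another histone mark, had 0 calls by edgeR and 0 by DESeq2, with 2 at an unadjusted p under 0.05. Of 11 trithorax genes, whose products oppose Polycomb silencing, Kmt2a was lower (-0.22, adjusted p = 0.0423).

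Of the 5 cell cycle inhibitor genes listed as PRC1 targets, 4 were tested and 0 called by edgeR, with 2 at an unadjusted p under 0.05 and 1 call by DESeq2. Cdkn2a, the textbook target of Bmi1, had 4 to 18 reads per animal, 41 in all wild types and 75 in all Q140 animals, too few to be tested. Of 58 neurodevelopmental transcription factor genes listed as targets, 24 were tested, 12 were called higher and 0 lower, and 34 had too few reads. A gene nearly silent in the wild types passes the read filter only through reads in Q140, so this count is not independent of the direction. Some of the 12 called higher had reads in the wild types too, at low levels. Among them, Lmx1b was at 0.251 ± 0.146 CPM and Onecut1 at 0.0995 ± 0.0388 CPM there (± SD over 6 mice). Nkx2-9 was at 0.5 ± 0.16 CPM in the wild types and 1.51 ± 0.141 CPM in Q140 animals (± SD over 6 mice, log2 fold change 1.57, edgeR adjusted p = 0.000307). These genes were picked from those called, so their values are no separate support. The rise of such developmental genes was known before the list was written, so the count is no independent support.

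Libraries held 19587208 to 35198602 reads in genes. The markers fixed for cortical neurons and glia were present, and they also differed between the genotypes. Of 8 excitatory neuron markers 3 were called lower and 0 higher, with a summed level of 6426 to 8202 CPM in the wild types and 5342 to 5907 CPM in Q140. Of 7 general neuron markers 3 were called lower and 0 higher (7675 to 8611 and 6220 to 7518 CPM). Of 8 inhibitory neuron markers 3 were called lower and 0 higher (577 to 793 and 546 to 686 CPM). Of 8 astrocyte markers 1 was called higher and 1 lower, and 1 of 8 microglia markers and 1 of 6 oligodendrocyte precursor markers were called higher. Of 8 oligodendrocyte markers 4 were called higher and 0 lower (3478 to 4925 and 3962 to 5661 CPM). In bulk tissue fewer cells of a type and less RNA per cell cannot be told apart. With the mean of the oligodendrocyte markers as a covariate, chosen after seeing the data, Cbx8 stood at 0.43 and did not pass (edgeR adjusted p = 0.075). With the mean of the excitatory neuron markers it passed. What part cell makeup has in the value of Cbx8 was not tested further. Meningeal markers summed to 29.9 to 359 CPM in the wild types and 143 to 370 CPM in Q140, and striatal markers to 315 to 1520 and 531 to 978 CPM.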

How the data were processed

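Whole-number read counts per gene were deposited by the authors, not normalized, for 12 animals. FPKM was deposited too, made by the authors from those counts, since the gene length that links both tables varied between animals by a coefficient no larger than 5.32e-09 over 15054 genes. Per the labels' protocols RNA came from a Qiagen kit and libraries from the Illumina TruSeq stranded kit. Tools named in the submitters' processing notes are HTSeq 0.12.3, SAMtools 1.10 and STAR 2.7.5c, and the build is GRCm38. Which annotation release and which strand option were used for counting is not given in the sources used here. Overlapping genes, such as Rnf2 with Trmt1l (158 shared exon bases), Cbx7 with Apobec3 (100) and Cbx6 with Npcd (563), may therefore share reads.

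The main test of the counts was edgeR 4.0.16 under R 4.3.3 (TMM, default expression filter by genotype, quasi-likelihood test, Benjamini-Hochberg over 17725 genes, two-sided). Genotype was tested with sex as a covariate, males against females with genotype as a covariate, and effects by sex as contrasts among 4 groups of genotype and sex. Ratios used exact permutation over 924 assignments and correlations 100000 resamples. Coordinates and GC content came from GENCODE M21, which matched 48435 of 48795 identifiers.

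The members and lists were chosen with earlier results of these data known. All 9 members were named, up to 6 genes of each other list by smallest p, and the 3 genes of at least 1 CPM most like each called member. The overlapping genes are named outside that rule. 1 gene of the list of other PRC1 genes is not reported here. Alternatives were other size factors, read filters, DESeq2 1.42.0, limma 3.58.1 (voom; log2 FPKM with a pseudocount of 0.1 or 1), no sex covariate, sva 3.50.0, animal name class, length and GC offsets, and each animal left out. Marker covariates and a block on the animal name number were added after seeing the data.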

Additional observations from a re-analysis of the deposited data

How the results depend on the processing

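Most alternatives left the number of genes called within 1.5 times of 1982 (797 higher, 1185 lower). It was 81 with animal name class as a covariate over 9 animals, 298 with the oligodendrocyte marker mean and 893 with the excitatory neuron marker mean, and 1139 to 2504 with an animal left out (1197 without wild type 1, 1231 without wild type 3, 1139 without Q140 2, 1314 without Q140 3). On log2(FPKM + 0.1) the split was 1570 higher and 751 lower, and on log2(FPKM + 1) 1568 and 743. PRC1 members called numbered 1, but 2 in both FPKM fits, with Bmi1 added, 0 with name class, 0 with the oligodendrocyte covariate, and 1 to 2 with an animal left out. Cbx7 turned to -0.00 with name class, -0.02 with the oligodendrocyte covariate and -0.01 with the excitatory covariate. For these changes the cause was not tested.

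With an animal left out, genes called were 228 to 1426 in females (against 1249; 433 without wild type 3, 678 without wild type 6, 622 without Q140 1, 228 without Q140 2), 41 to 747 in males (against 248; 41 without wild type 1, 58 without wild type 5, 84 without Q140 3, 747 without Q140 5, 55 without Q140 6), 0 to 4 for the difference between the sexes (against 0; 1 without Q140 3, 4 without Q140 4) and 45 to 146 for males against females (against 116; 69, 68, 50 and 64 without wild types 1, 3, 4 and 6, and 47, 45, 59 and 49 without Q140 1, 2, 3 and 6). Cbx8 in males was past the threshold in 14 of 14 alternatives (0.56 to 0.70). The Cbx7 to Cbx6 ratio, at 0.13, passed when permuted within sex (exact permutation, adjusted p = 0.03). The Ring1 to Rnf2 ratio turned to 0.01 without Q140 5 and ran from -0.11 to 0.01 with an animal left out. Ranges of the other ratios were -0.30 to -0.20 for Pcgf2 to Bmi1 and 0.08 to 0.17 for Cbx7 to Cbx6. Pairs passing by r fell from 2 to 0 with only genotype removed and to 0 with length and GC offsets. For these changes too the cause was not tested. The replicate numbers used here pair no animals. Animal names share 2 numbers between the genotypes, over 5 animals, and with that number as a replicate block 1 gene and 0 PRC1 members were called, with fewer animals, and no member changed direction. Over 27 alternatives the members not called ran from -0.21 to -0.05 (Ring1), -0.11 to -0.01 (Rnf2), 0.10 to 0.17 (Bmi1), -0.18 to -0.04 (Pcgf2), 0.17 to 0.37 (Cbx2), -0.12 to -0.05 (Cbx6) and 0.05 to 0.13 (Phc1). Cdkn2a and 34 listed target genes had too few reads to be tested, and some of the 34 had no reads in any animal. Whether depth or absent expression lies behind this was not tested.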
